A study of Mus musculus with 2040 samples.

Results

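The data describe 10 genes for cell surface receptors through which astrocytes can sense noradrenaline, purines, peptides and GABA, chosen by name as columns of a table of 32245 genes. They are the adrenergic receptors Adra1a, Adra1b, Adra2a and Adrb1, the purine receptors Adora1 and P2ry1, the peptide receptors Ednrb and Ntsr2, and the GABA-B receptor subunits Gabbr1 and Gabbr2. All 10 were found in the table, and each is described in astrocytes of 3 tissues, in oligodendrocytes and in neurons. RNA was measured by SMARTerv4 sequencing in 2040 single cells from 47 C57Bl/6J mice. Each mouse had received 1 adeno-associated virus (AAV) in which an enhancer or promoter drives the fluorescent protein SYFP2, and the SYFP2-positive cells were sorted by flow cytometry. Tissue came from VISp, the primary visual cortex (41 mice, 27 vectors, 1785 cells), from MB/HB, midbrain and hindbrain (4 mice, 174 cells), and from CBX, cerebellar cortex (2 mice, 81 cells). In MB/HB 2 mice carried eHGT_381h and 2 carried MGT_E160m, and both CBX mice carried eHGT_375m; mice of 1 vector are called a and b here. Each tissue had vectors of its own, so tissue and vector cannot be told apart, and each vector selects the cells that were seen. All mice carried a vector, and no uninjected animal is part of the design. Age and sex are not given in the sources used here.

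Cells were grouped by clustering without the 10 receptor genes and named from marker genes. The astrocyte-like cells, called astrocytes from here on, numbered 739 in VISp (19 mice), 149 in MB/HB (4 mice) and 81 in CBX (2 mice). The comparison classes were 963 oligodendrocyte-like cells of VISp, 83 neuron-like cells of VISp and 15 neuron-like cells of MB/HB. In VISp neurons, 63 of 83 cells had a read of Gad1 and 64 of Gad2, which make GABA, and 28 had a read of Slc17a7, a vesicular glutamate transporter. All 12 astrocyte markers were at 1 CPM (count per 1000000 reads) or more in the astrocytes of each tissue, and their summed level was 30171 to 38335 CPM in VISp, 30775 to 36864 in MB/HB and 36059 to 37806 in CBX. The tissues' astrocytes fell in different clusters: clusters 1 and 3 held 434 and 259 VISp cells, cluster 4 held 140 MB/HB cells and cluster 7 held 78 CBX cells. By difference of mean log2 values, cluster 7 was led by Gdf10, Ctxn3 and A2m. Its 10 leading genes held 0 astrocyte markers, but all 12 were detected in over 50% of its cells. CBX values thus describe mostly this cluster and are not shown to hold for other cerebellar astrocytes. Median depth of an astrocyte was 431572 reads in VISp, 411220 in MB/HB and 375425 in CBX. At least 50% of the astrocyte markers were also detected in 76 of the 963 oligodendrocytes. Without those 76, oligodendrocyte Ntsr2 was 21.9 ± 10.8 CPM, against 37.7 ± 25.5 with them (SD, n = 22 mice), and Adora1 was 164 ± 47.4 against 163 ± 45.5 CPM. Other oligodendrocyte values are given with all 963 cells. Naming was also sensitive to how a cluster's leading genes were ranked. Ranked by the ratio of mean CPM, the 10 leading genes of cluster 5 (104 cells, named oligodendrocyte) held 5 endothelial markers and 1 of their own list. Those of cluster 9 (49 cells, named astrocyte) held 0 of their own list. Among them were the endothelial markers Itm2a, Slco1a4 and Cldn5 and the mural markers Acta2, Vtn and Tagln. Both clusters would then have no name. That would leave 860 oligodendrocytes in VISp, with Adora1 at 171 ± 48.7 CPM and Ednrb at 4.39 ± 4.78 CPM (n = 22 mice), and no call of a receptor gene between astrocyte tissues changed.

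Astrocytes carry few voltage-gated responses of their own and read neuronal activity largely through G protein-coupled receptors. Receptors coupled to Gq (the alpha-1 adrenergic receptors, P2ry1, Ednrb) act through phospholipase C and release calcium from internal stores. Receptors coupled to Gi or Go (Adra2a, Adora1, GABA-B) lower cyclic AMP, and the beta adrenergic receptor Adrb1 raises it through Gs. Noradrenaline from the locus coeruleus, ATP and its product adenosine, endothelin and GABA reach astrocytes in many brain regions.

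The stretch of 250 bases upstream of the RefSeq transcription start (GRCm38.p6) is shown for 3 receptor genes whose astrocyte level moved the same way in MB/HB and CBX against VISp. These are P2ry1 and Ednrb, higher in both, and Gabbr1, lower in both. Gabbr2 was also lower in both, and its window is not shown. The P2ry1 window lies on chromosome 3 at chr3:61002535-61002784 (plus strand), the Ednrb window at chr14:103843702-103843951 (minus strand) and the Gabbr1 window at chr17:37045716-37045965 (plus strand). Capitals mark the GC box GGGCGG, the core of an Sp1 site, read on either strand (CCGCCC on the other). The P2ry1 window also lies under an exon of Gm37035, an antisense gene, and the other 2 windows overlap no annotated exon.
P2ry1: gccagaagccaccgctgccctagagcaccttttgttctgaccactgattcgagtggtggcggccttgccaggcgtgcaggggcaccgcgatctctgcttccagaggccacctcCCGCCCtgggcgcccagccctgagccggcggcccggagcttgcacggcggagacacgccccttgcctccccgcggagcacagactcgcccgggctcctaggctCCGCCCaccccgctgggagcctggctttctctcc
Ednrb: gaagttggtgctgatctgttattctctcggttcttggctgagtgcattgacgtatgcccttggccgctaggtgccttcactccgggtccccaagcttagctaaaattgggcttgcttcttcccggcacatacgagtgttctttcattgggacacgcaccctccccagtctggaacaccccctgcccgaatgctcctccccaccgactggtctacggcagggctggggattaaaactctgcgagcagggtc
Gabbr1: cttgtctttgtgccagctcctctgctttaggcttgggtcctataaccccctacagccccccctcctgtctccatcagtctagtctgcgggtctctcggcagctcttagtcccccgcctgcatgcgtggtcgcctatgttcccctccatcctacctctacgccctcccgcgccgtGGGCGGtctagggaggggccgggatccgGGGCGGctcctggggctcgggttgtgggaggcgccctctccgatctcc
The P2ry1 window held 2 GC boxes, both on the minus strand, the Gabbr1 window held 2 on the plus strand, and the Ednrb window held none. Of all 32851 RefSeq windows of this length, 32.7% held at least 1 GC box, beside 7 of the 11 windows found for 9 of the receptor genes. No window was found for Adra1a. GC content was 70.8% for P2ry1, 56.8% for Ednrb and 66.0% for Gabbr1, against a median of 52.4% over all windows. A match describes letters in the window and shows no binding.

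Divided by exon length, the levels of the 10 genes in VISp astrocytes spanned several orders of magnitude. The neurotensin receptor Ntsr2 was highest, at 973 ± 113 CPM per kilobase of exon (SD, n = 19 mice), and the endothelin receptor Ednrb followed at 104 ± 24.8. Gabbr1 (19.98 ± 4.97) and Gabbr2 (17.9 ± 5.42) overlapped within their SD, and Adora1 stood at 10.39 ± 4.68. The adrenergic receptors were low, at 3.37 ± 1.82 for Adra1a, 2.60 ± 1.82 for Adra1b, 2.28 ± 1.76 for Adra2a and 1.45 ± 1.28 for Adrb1, each within the SD of its neighbour. P2ry1 was last at 0.146 ± 0.635. The order was different in MB/HB, where Adra2a (29.7 ± 9.49, n = 4) and P2ry1 (18.9 ± 5.42) stood next after Ntsr2 and Ednrb. In CBX, Adra2a was last at 0.0343 ± 0.0485 (n = 2) and P2ry1 reached 10.9 ± 0.174.

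**Figure D1:**
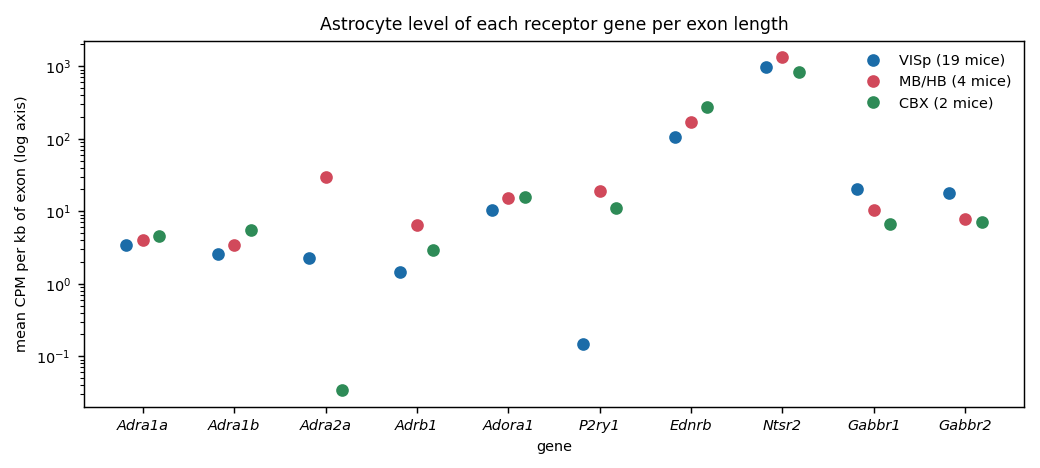
Mean level of each receptor gene in astrocytes per kilobase of exon (CPM per kb, log axis), 1 point per tissue, averaged over mice. Ntsr2 and Ednrb lead in all 3 tissues, and P2ry1 in VISp (0.146) and Adra2a in CBX (0.0343) lie far under the other points.

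Astrocyte levels were compared between tissues over mice, on log2(mean CPM + 1), with limma across 3774 genes. Against VISp, 5 of the 10 receptor genes passed an adjusted p of 0.05 in CBX, where 13.8% of all genes tested did: P2ry1 and Ednrb rose, and Adra2a, Gabbr1 and Gabbr2 fell. In MB/HB against VISp 7 of 10 passed, beside 13.8% of all genes: Adra2a, Adrb1, P2ry1, Ednrb and Ntsr2 rose, and Gabbr1 and Gabbr2 fell. Between CBX and MB/HB 2 of 10 passed, beside 10.9% of all genes, and both Adra2a and Ntsr2 were lower in CBX. The median log2 fold change of the 10 was 0.77 in CBX against VISp, 0.45 in MB/HB against VISp and -0.48 in CBX against MB/HB, beside -0.03, -0.01 and 0.00 over all genes. The first 2 comparisons share the VISp mice, so their calls are not independent. The 10 genes were chosen with earlier results of these data known. Their counts and medians beside those of all genes are therefore description and no test of the set.

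These calls rest on 2 CBX and 4 MB/HB mice. All 10 genes passed the filter on low values, but P2ry1 passed it only through the MB/HB and CBX mice. In VISp 1 mouse reached 1 CPM of P2ry1, so passing the filter lends no support to its calls. A difference that missed the threshold is not shown to be absent. CBX against VISp had 264 genes higher and 255 lower; when each mouse was centred on its median gene, the median over all genes moved from -0.03 to 0.18 and the split became 355 higher and 208 lower. CBX against MB/HB moved from 174 higher and 236 lower to 239 and 194 in the same way. The calls of the receptor genes held under this centring, except that Ntsr2 lost both of its calls.

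Cell names begin with a stem that cells of several mice share, and 5 of the 14 stems with astrocytes held more than 1 tissue. What a stem stands for is not stated in the labels. Each CBX or MB/HB value within a stem came from 1 mouse, and the 2 CBX mice recur over the 4 stems. MB/HB mouse eHGT_381h a stood for MB/HB in 2 of the 3 stems with that tissue, so the stems are not independent repeats. At most 2 of the 4 MB/HB mice are thus represented within stems, and at least 1 MGT_E160m mouse is not. Within the 4 stems with CBX and VISp mice, P2ry1 was higher in CBX in all 4 (difference 5.06 to 6.34), as was Ednrb (0.93 to 1.87), while Adra2a (-3.24 to -0.21) and Gabbr1 (-2.21 to -0.30) were lower in all 4. Gabbr2 was lower in 3 of them and higher in 1 (1.35). Within the 3 stems with MB/HB and VISp mice, P2ry1 (5.92 to 6.18), Adra2a (3.22 to 4.29), Adrb1 (1.95 to 3.31), Ednrb (0.12 to 1.35) and Ntsr2 (0.18 to 0.72) were higher in all 3, Gabbr1 was lower in all 3 (-1.69 to -0.14), and Gabbr2 ranged from -2.53 to 0.22. Within the 2 stems with CBX and MB/HB mice, Adra2a (-6.73 to -6.43) and Ntsr2 (-0.95 to -0.71) were lower in CBX in both. With the stem of most of a mouse's astrocytes as a covariate, an alternative added after seeing the data, 3 calls were lost: Adrb1 in MB/HB against VISp (2.51, adjusted p = 0.0825), Ednrb in MB/HB against VISp (0.69, adjusted p = 0.0592) and Gabbr2 in CBX against VISp (-1.33, adjusted p = 0.113).

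**Figure D2:**
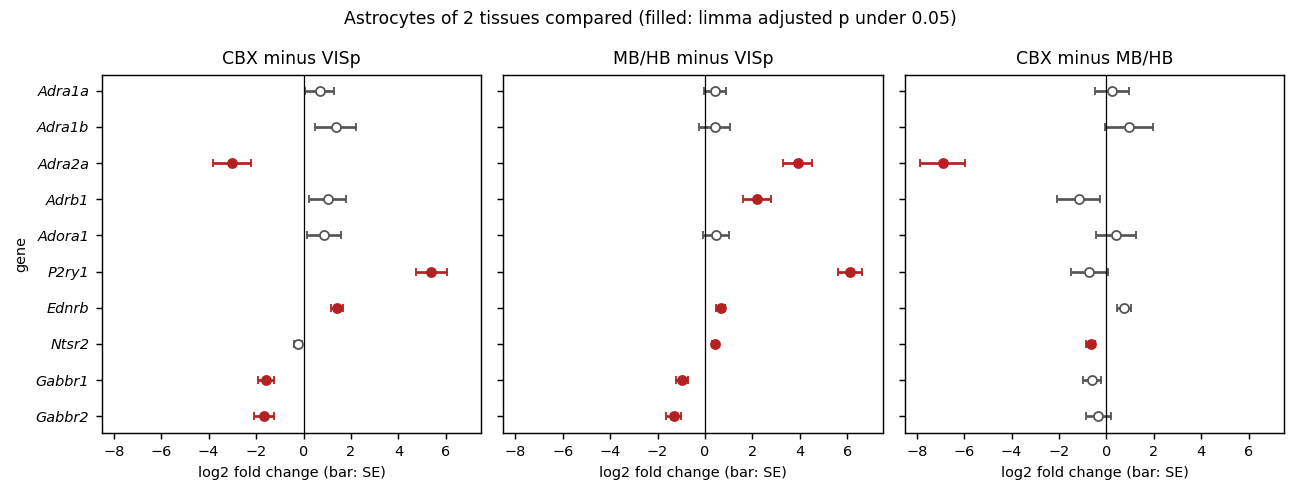
Log2 fold change of each receptor gene between astrocytes of 2 tissues, with its standard error; filled points passed an adjusted p of 0.05 in limma. P2ry1 lies at 5.39 and 6.11 against VISp, and Adra2a lies at -3.01 in CBX and 3.90 in MB/HB.

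Adra1a and Adra1b encode the alpha-1 adrenergic receptors through which noradrenaline raises astrocyte calcium. Adra1a was measured at 39.7 and 40.6 CPM in the CBX mice, at 34.7, 20.4, 40.6 and 45.5 CPM in MB/HB mice eHGT_381h a, eHGT_381h b, MGT_E160m a and MGT_E160m b, and at 3.47 to 63.4 CPM (median 30.2) in the 19 VISp mice. All CBX and MB/HB values lay inside the VISp range. The log2 difference was 0.68 (SE 0.62, adjusted p = 0.63) in CBX against VISp and 0.44 (SE 0.46, adjusted p = 0.603) in MB/HB against VISp. Adra1b was measured at 19.6 and 17.9 CPM in CBX, 2.10 to 18.99 CPM in MB/HB and 0 to 21.1 CPM in VISp. Its difference from VISp was 1.36 (SE 0.86, adjusted p = 0.404) in CBX and 0.41 (SE 0.64, adjusted p = 0.735) in MB/HB.

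The share of astrocytes with a read was set beside these levels, without a test. Adra1a was read in 56.8% of CBX astrocytes (exact 95% interval 45.3 to 67.8%), in 32.9% of MB/HB astrocytes (25.4 to 41.0%) and in 24.5% of VISp astrocytes (21.4 to 27.8%). With each cell thinned to 50000 reads these shares were 46.9%, 22.8% and 19.6%. Among cells with a read, the median level ran the other way, at 49.3 CPM in CBX, 67.4 in MB/HB and 82.4 in VISp. By mouse, the share was 55.8 and 57.9% in CBX, 12.5 to 44.4% in MB/HB and 8.89 to 47.8% in VISp, so the CBX mice lay above the others. When the log was taken in each cell before averaging, the CBX difference from VISp reached 1.58 for Adra1a (adjusted p = 0.00751) and 1.11 for Adra1b (adjusted p = 0.00352). Oligodendrocytes had a read of Adra1a in 3.74% of cells, at a median of 2.44 CPM in those cells, so the 24.5% of VISp astrocytes lay above that background. VISp neurons reached 32.9 ± 22.7 CPM of Adra1a and 16.03 ± 4.49 CPM of Adra1b (SD, n = 3), overlapping the astrocytes of each tissue for both genes. These neurons came from mice of the vectors MBP_promoter and eHGT_374m. Neurons of 1 MB/HB mouse were lower, at 0.162 CPM of Adra1a and 0.852 CPM of Adra1b.

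Adra2a encodes the alpha-2A adrenergic receptor, which couples to Gi. It was the receptor gene that separated the tissues in both directions. The 4 MB/HB mice held 133, 158, 197 and 87.4 CPM (in the mouse order given for Adra1a), the 19 VISp mice 0 to 31.5 CPM (median 8.29), and the CBX mice 0.332 and 0 CPM. The lowest MB/HB mouse was above the highest VISp mouse, whereas 1 VISp mouse, of vector eHGT_374m, was listed at 0 as 1 CBX mouse was. Against VISp, Adra2a was 3.90 log2 units higher in MB/HB (SE 0.60, adjusted p = 1.25e-05). It fell by 3.01 in CBX (SE 0.81, adjusted p = 0.00921). CBX and MB/HB differed by -6.91 (SE 0.94, adjusted p = 2.03e-06).

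By cell, Adra2a was read in 80 of 149 MB/HB astrocytes (53.7%), in 72 of 739 VISp astrocytes (9.74%) and in 1 of 81 CBX astrocytes (1.23%, interval 0.0313 to 6.69%). That single CBX cell held 6 reads. In cells with a read the median was 216 CPM in MB/HB and 90.5 CPM in VISp. Both MB/HB vectors gave high levels: 197 and 87.4 CPM under MGT_E160m, 133 and 158 CPM under eHGT_381h. VISp oligodendrocytes had a read in 4 of 963 cells and VISp neurons in 22 of 83, at a mean level of 7.67 ± 6.27 CPM. The CBX difference from VISp missed the threshold without CBX mouse a (-3.21, adjusted p = 0.0824), without CBX mouse b (-2.80, adjusted p = 0.169) and when the log was taken per cell (-0.55, adjusted p = 0.297). With a pseudocount of 0.1 it was -5.16.

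Adrb1 encodes the beta-1 adrenergic receptor, which couples to Gs and raises cyclic AMP. It was measured at 28.3, 21.5, 11.5 and 24.8 CPM in the MB/HB mice, at 14.8 and 4.69 CPM in the CBX mice and at 0.537 to 17.6 CPM (median 3.51) in VISp. The MB/HB range overlapped the top of the VISp range, and the CBX mice lay inside it. Against VISp, Adrb1 rose by 2.19 in MB/HB (SE 0.59, adjusted p = 0.00864), and by 1.04 with the log taken per cell (adjusted p = 0.00235). The CBX difference from VISp was 1.01 (SE 0.79, adjusted p = 0.537). A read was found in 31.5% of MB/HB, 29.6% of CBX and 14.3% of VISp astrocytes, against 2.60% of oligodendrocytes.

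**Figure D3:**
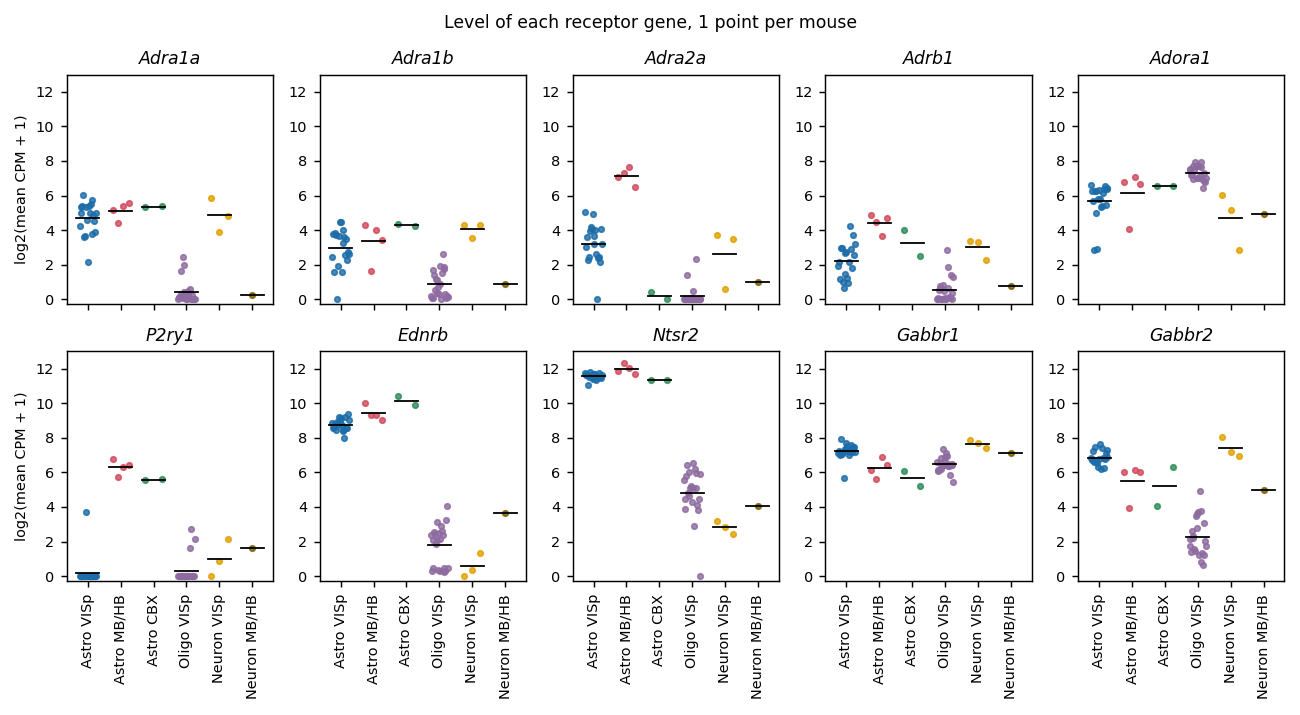
Level of each receptor gene on log2(mean CPM + 1), 1 point per mouse with at least 10 cells of the class and a line at the mean of each group, for astrocytes of 3 tissues, oligodendrocytes and neurons. P2ry1 sits at 0 in 17 of 19 VISp astrocyte mice and above 5.5 in all MB/HB and CBX mice, and Adra2a is high in MB/HB alone among the astrocyte groups.

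P2ry1 encodes a Gq-coupled receptor for ADP that evokes calcium signals in astrocytes. In VISp it was all but absent: 17 of 19 mice were listed at 0, and 2 of 739 astrocytes had a read. Those cells held 52 of the 330815863 reads of all VISp astrocytes, 51 of them in a single cell of the eHGT_373m mouse. That mouse reached 11.9 CPM, the VISp maximum. The 4 MB/HB mice held 108, 51.6, 80.1 and 84.0 CPM and the CBX mice 46.4 and 47.5 CPM, all above that maximum. P2ry1 was higher than in VISp by 6.11 in MB/HB (SE 0.49, adjusted p = 3.23e-11) and by 5.39 in CBX (SE 0.66, adjusted p = 2.01e-07). It had passed the filter on low values only through the mice of these 2 tissues. MB/HB and CBX differed by -0.73 (SE 0.77, adjusted p = 0.649).

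P2ry1 was read in 46 of 149 MB/HB astrocytes (30.9%, interval 23.6 to 39.0%) and in 38 of 81 CBX astrocytes (46.9%, 35.7 to 58.3%), against 0.271% in VISp (0.0328 to 0.974%). Thinned to 50000 reads per cell, the shares were 29.5%, 43.2% and 0.135%. MB/HB cells with a read held a median of 236 CPM and CBX cells 80.5 CPM. The intervals of the 2 shares overlapped, as did the shares by mouse (15.6 to 40% in MB/HB and 36.8 to 55.8% in CBX). With the log taken in each cell, the difference between CBX and MB/HB was 0.72 (adjusted p = 0.0527). VISp oligodendrocytes had a read in 3 of 963 cells and VISp neurons in 5 of 83. With VISp near 0, the size of the change moved with the pseudocount, to 9.24 in MB/HB and 8.50 in CBX at 0.1 CPM, and to 2.18 and 2.90 with the log taken per cell. Exons of P2ry1 and its antisense neighbour Gm37035 overlap, and without strand in the counts their reads cannot be told apart.

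Adora1 encodes the adenosine A1 receptor, which couples to Gi. It was higher in oligodendrocytes than in any astrocyte group by its median. The 22 oligodendrocyte mice held 86.7 to 248 CPM (median 153.8), and the 3 VISp neuron mice 6.10 to 65.1 CPM. Astrocytes held 6.34 to 95.3 CPM (median 69.2) in VISp, 108, 15.8, 131 and 101 CPM in MB/HB, and 92.1 and 91.8 CPM in CBX. Oligodendrocytes and VISp astrocytes overlapped at their edges alone, and MB/HB mouse eHGT_381h b stood far under the other 3. The astrocyte tissues did not pass the test, with 0.86 in CBX against VISp (SE 0.73, adjusted p = 0.589) and 0.47 in MB/HB against VISp (SE 0.54, adjusted p = 0.644). With the log taken per cell, the CBX difference from VISp was 2.22 (adjusted p = 0.00496).

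After thinning, Adora1 was read in 64.3% of oligodendrocytes (interval 61.2 to 67.3%), 56.8% of CBX astrocytes (45.3 to 67.8%), 38.3% of MB/HB astrocytes (30.4 to 46.6%) and 25.03% of VISp astrocytes (21.9 to 28.3%). In cells with a read, oligodendrocytes (209 CPM) and VISp astrocytes (193 CPM) were close in median, and CBX astrocytes were lower (135 CPM). The summed level of 12 oligodendrocyte markers was 171 to 1311 CPM in VISp astrocytes, 839 to 6262 in MB/HB and 1935 to 2224 in CBX, where Cldn11 and Ugt8a were at 0. It was 68592 to 92493 CPM in oligodendrocytes. The part of this RNA in the Adora1 level was not tested. Adora1 exons overlap those of Mybph on the opposite strand, so their reads cannot be told apart either.

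Ednrb encodes the endothelin B receptor, a Gq-coupled receptor that astrocytes of many regions express. It was the receptor gene with the clearest rise in CBX after P2ry1. The CBX mice held 1384 and 945 CPM, the MB/HB mice 1042, 650.0, 634 and 532 CPM, and the VISp mice 248 to 657 CPM (median 432). Both CBX mice exceeded all VISp mice, while 3 of the 4 MB/HB mice lay within the VISp range. Ednrb rose by 1.40 in CBX (SE 0.26, adjusted p = 0.00014) and by 0.67 in MB/HB (SE 0.19, adjusted p = 0.014). The difference between CBX and MB/HB was 0.73 (SE 0.30, adjusted p = 0.132). It passed the threshold without mouse eHGT_381h a (0.92, adjusted p = 0.0436), and it was 1.66 with the log taken per cell (adjusted p = 0.0568).

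A read of Ednrb was found in 97.5% of CBX, 90.6% of MB/HB and 84.7% of VISp astrocytes. In oligodendrocytes the unthinned share was 12.1%, but at a median of 2.50 CPM in those cells, and it was 3.63% after thinning (1.92% without the 76 cells with astrocyte markers). VISp neurons were at 0.608 ± 0.819 CPM. The MB/HB rise rested on mouse eHGT_381h a: without it the difference was 0.48 (adjusted p = 0.13), and with the log taken per cell it was 1.02 (adjusted p = 0.109). The CBX value was 2.68 with the log taken per cell. Endothelial cells also express Ednrb, and the summed level of 6 endothelial markers in astrocytes was 7.11, 84.0, 805 and 1209 CPM in MB/HB mice MGT_E160m a, MGT_E160m b, eHGT_381h a and eHGT_381h b. It was 0.776 to 23.1 CPM in VISp and 13.5 and 19.5 CPM in CBX. The part of endothelial RNA in the MB/HB level was not tested.

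Ntsr2 encodes the neurotensin receptor that is enriched in astrocytes. It was the highest of the 10 genes and the most even. The VISp mice held 2142 to 3619 CPM (median 3015), the CBX mice 2556 and 2570 CPM, and the MB/HB mice 3717, 5235, 4243 and 3325 CPM. MB/HB overlapped the top of the VISp range in 1 of its 4 mice, and the CBX mice lay within it. Ntsr2 rose by 0.43 in MB/HB against VISp (SE 0.12, adjusted p = 0.0108) and was lower in CBX than in MB/HB by a difference of -0.67 (SE 0.19, adjusted p = 0.0156). CBX and VISp differed by -0.23 (SE 0.16, adjusted p = 0.455).

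Nearly every astrocyte had a read of Ntsr2: 737 of 739 in VISp, 146 of 149 in MB/HB and 79 of 81 in CBX. Oligodendrocytes had a read in 18.4% of cells at a median of 155 CPM, and VISp neurons in 25.3% at 56.4 CPM. Both Ntsr2 calls are small and did not hold throughout. The MB/HB rise missed the threshold without mouse eHGT_381h b (0.31, adjusted p = 0.13), under centring (0.45, adjusted p = 0.0746) and with the log per cell (0.19, adjusted p = 0.475). The CBX to MB/HB difference missed it without CBX mouse a, CBX mouse b or eHGT_381h b (adjusted p = 0.121, 0.137 and 0.0591), under centring (-0.47, adjusted p = 0.289) and with the log per cell (-0.60, adjusted p = 0.0907).

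**Figure D4:**
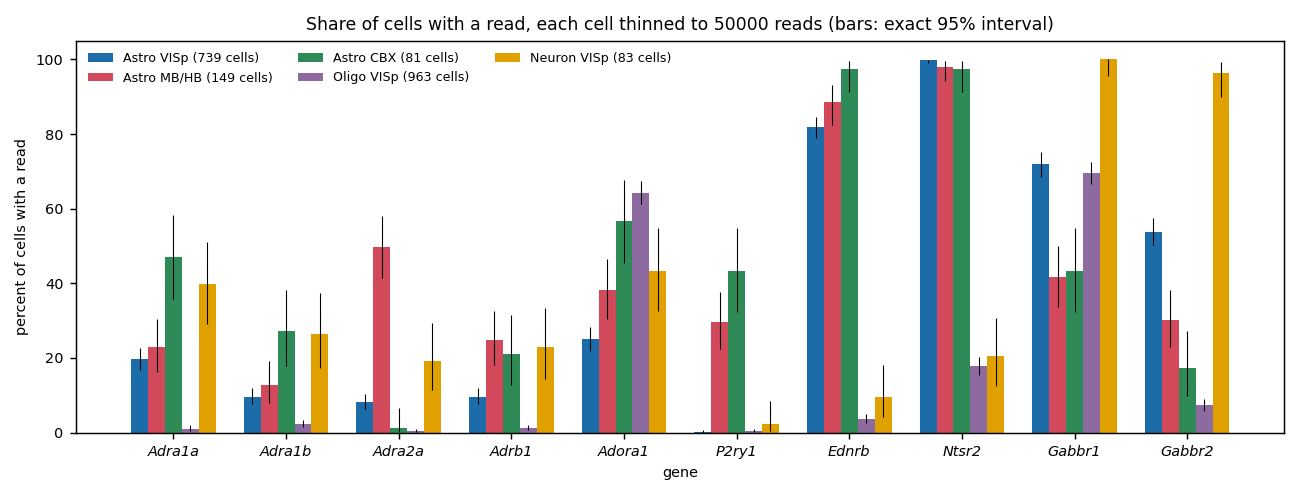
Percent of cells with a read of each receptor gene after thinning every cell to 50000 reads, by class and tissue, with exact 95% intervals over the pooled cells (counting error only). Ntsr2 and Ednrb fill most astrocytes of all tissues, Adora1 is read in 64.3% of oligodendrocytes, and P2ry1 is near 0 outside MB/HB and CBX astrocytes.

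The GABA-B receptor is an obligate pair of Gabbr1, which binds GABA, and Gabbr2, which brings the pair to the surface and couples it to Gi or Go. Both subunits fell in MB/HB and in CBX against VISp. Gabbr1 was 50.2 to 241 CPM in VISp (median 150.5), 68.2, 47.8, 118 and 85.6 CPM in MB/HB, and 67.8 and 35.8 CPM in CBX. The lowest VISp mouse, of vector eHGT_385m at 50.2 CPM, overlapped with both groups. Gabbr2 was 72.4 to 201 CPM in VISp (median 110.3), 63.9, 14.5, 69.2 and 63.8 CPM in MB/HB, and 15.8 and 78.6 CPM in CBX. All MB/HB mice lay under the VISp range, as did CBX mouse a, but CBX mouse b lay within it through 1 cell (described with the levels by cluster).

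Gabbr1 changed by -1.58 in CBX (SE 0.34, adjusted p = 0.000926) and by -0.97 in MB/HB (SE 0.25, adjusted p = 0.00647), both against VISp. Gabbr2 changed by -1.67 (SE 0.44, adjusted p = 0.00784) and -1.33 (SE 0.33, adjusted p = 0.00424). CBX and MB/HB differed by -0.61 (SE 0.39, adjusted p = 0.392) for Gabbr1 and -0.34 (SE 0.51, adjusted p = 0.767) for Gabbr2. Single mice carried much of this. In MB/HB, both calls were lost without mouse eHGT_381h b (Gabbr1 -0.75, adjusted p = 0.074; Gabbr2 -0.80, adjusted p = 0.0998). In CBX, the Gabbr1 call was lost without mouse b (-1.13, adjusted p = 0.172) and the Gabbr2 call without mouse a (-0.54, adjusted p = 0.809).

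The CBX level of Gabbr2 differed strongly between cells. Within cluster 7, which held 78 of the 81 CBX astrocytes, the level of mouse a was 4.13 on log2(mean CPM + 1), against 4.07 over all its astrocytes, and that of mouse b was 3.30, against 6.31. The level of mouse b rested on 1 cell outside that cluster, at 2658 CPM. Without that cell its other 37 astrocytes averaged 8.83 CPM, under the VISp range. Without the 11 CBX cells in which at least 50% of the oligodendrocyte or neuron markers were detected, and such cells of the other tissues, the change against VISp was -3.60 (adjusted p = 1.35e-07). With the class called in each cell, which made 1 of the 81 CBX astrocytes a neuron, the change was -3.18 (adjusted p = 1.37e-07). Without CBX mouse b it was -2.79. The summed level of 12 neuron markers in astrocytes was 56.2 to 425 CPM in VISp, 27.1 to 448 in MB/HB, and 391 and 210 CPM in CBX mice a and b. VISp neurons, at 14287 to 19486 CPM for these markers, had 177 ± 77.8 CPM of Gabbr2. The part of neuronal RNA in the Gabbr2 level of CBX mouse b was not tested.

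The classes differed in which subunit was read. After thinning, both subunits were read in 39.9% of VISp astrocytes, 14.1% of MB/HB astrocytes, 7.41% of CBX astrocytes and 96.4% of VISp neurons. Were the 2 genes read independently of each other, these shares would be 38.8%, 12.6%, 7.47% and 96.4%. The joint shares thus follow from the single shares and show no pairing within cells. In oligodendrocytes the pair was read in 5.504% of cells (4.17% without the 76 cells with astrocyte markers), and 64.1% had Gabbr1 alone. Gabbr1 in oligodendrocytes was 90.6 ± 26.7 CPM (SD, n = 22 mice) and Gabbr2 5.62 ± 6.53 CPM. So the oligodendrocyte level of Gabbr1 overlapped that of astrocytes in each tissue, while Gabbr2 was read in 7.27% of thinned oligodendrocytes against 17.3% to 53.9% of thinned astrocytes. Gabbr2 alone was read in 13.9% of VISp, 16.1% of MB/HB and 9.88% of CBX astrocytes, and in 1.77% of oligodendrocytes.

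**Figure D5:**
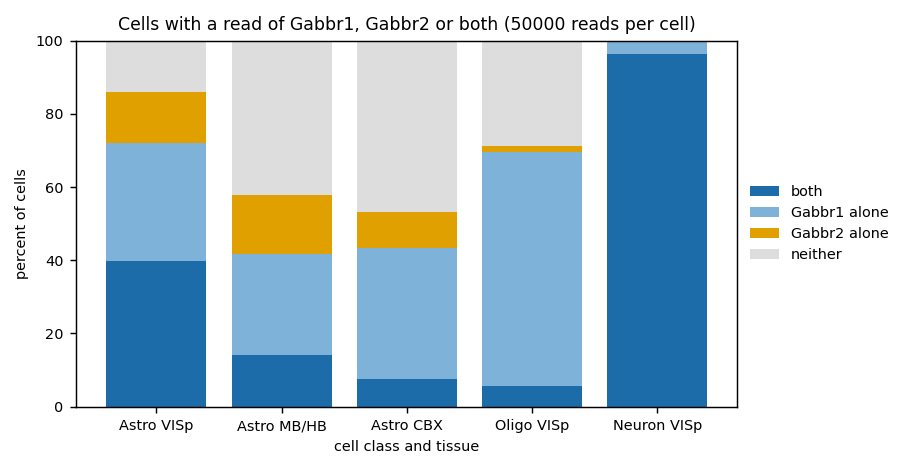
Share of cells with a read of both GABA-B subunit genes, of 1 alone or of neither, with every cell thinned to 50000 reads. Both are read in 96.4% of VISp neurons and 39.9% of VISp astrocytes, and Gabbr1 alone in 64.1% of oligodendrocytes.

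Seen per cell, astrocytes carried several of the 10 receptors at once. The median number read in a cell was 4 in VISp astrocytes, 5 in MB/HB and 5 in CBX, against 2 in oligodendrocytes and 4 in VISp neurons. After thinning the astrocyte median was 4 in each tissue. In MB/HB, 25 of 149 astrocytes had reads of both Adra2a and P2ry1, 55 of Adra2a alone, 21 of P2ry1 alone and 48 of neither. Both were thus read in 16.8% of cells, beside 16.6% if the 2 genes were read independently. Cells with no read of a receptor may still carry its RNA. In the CBX astrocytes, 23 of 81 had reads of both Adora1 and P2ry1, 29 of Adora1 alone and 15 of P2ry1 alone. In 112 of 739 VISp astrocytes Ntsr2 was read without Ednrb, and the reverse was seen in 1 cell.

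Within VISp, 7 vectors had 2 mice each and could be compared over 14 mice. None of the receptor genes tested passed. The smallest unadjusted p in the limma F-test was 0.216 for Gabbr2, followed by 0.328 for Adora1, and P2ry1 did not pass the filter. Over all 3486 genes tested, 0 passed an adjusted p of 0.05 (0%), and 161 (4.62%) had an unadjusted p under 0.05. Mice of a single vector could still differ widely: Adra1a was 11.1 and 53.2 CPM in the 2 eHGT_374m mice and 63.4 and 13.8 CPM in the 2 eHGT_380h mice. In MB/HB, the 2 mice of eHGT_381h differed more than the vectors did for Adora1 (108 and 15.8 CPM) and Gabbr2 (63.9 and 14.5 CPM), beside 131 and 101 CPM and 69.2 and 63.8 CPM under MGT_E160m. These MB/HB values were not tested.

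The other genes of these pathways were followed through 7 lists with 115 genes, of which 83 passed the filter. In CBX against VISp 6 were higher and 8 lower, beside 7% and 6.76% of all genes tested. In MB/HB against VISp 9 were higher and 9 lower, beside 7.55% and 6.23%. Between CBX and MB/HB 5 were higher in CBX and 6 lower, beside 4.61% and 6.25%. The median log2 fold change of the 83 was -0.22, 0.01 and -0.07 in that order, beside -0.03, -0.01 and 0.00 over all genes. The 5 other adrenergic receptors gave no call among the 2 tested. Of 26 other neuromodulator receptors, 17 were tested and Htr6 and Cnr1 passed in at least 1 comparison. Of 16 other purine receptors, 10 were tested and Adora2b and P2rx4 passed.

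Among receptors, Adora2b, the Gs-coupled adenosine A2B receptor, was 76.6 to 289 CPM in VISp, 170 to 294 CPM in MB/HB, and 28.6 CPM or less in CBX. It fell by 3.46 in CBX against VISp (adjusted p = 1.29e-09) and was lower in CBX than in MB/HB (-3.61, adjusted p = 2.69e-08). Htr6, a serotonin receptor, was 0.199 to 46.1 CPM in VISp, at most 0.0738 CPM in MB/HB (-3.52, adjusted p = 0.000317), and listed at 0 in both CBX mice (adjusted p = 0.00585). Cnr1, the cannabinoid CB1 receptor, was 3.11 to 37.1 CPM in VISp and at most 0.481 CPM in MB/HB (-3.66, adjusted p = 1.28e-05). P2rx4, an ATP-gated channel, was higher in CBX than in MB/HB (2.23, adjusted p = 0.0144). Thus the receptors outside the 10 that passed in both comparisons with VISp came down to Htr6.

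Of 21 other peptide receptors, 13 were tested. Gpr37, an orphan relative of the endothelin receptors, was 303 to 588 CPM in MB/HB against 20.7 to 99.8 CPM in VISp (2.94, adjusted p = 4.69e-09) and was lower in CBX than in MB/HB (-3.91, adjusted p = 2.16e-07). Its relative Gpr37l1 rose in CBX against VISp (0.81, adjusted p = 0.0167) and was higher there than in MB/HB (0.86, adjusted p = 0.041). Sstr2, a somatostatin receptor, rose in CBX against VISp (2.89, adjusted p = 0.043) at low levels. The CBX mice, at 16.7 and 8.46 CPM, lay inside the VISp range of 0 to 21.3 CPM (median 0). Sort1, a sorting receptor that also binds neurotensin, was higher in CBX than in MB/HB (1.17, adjusted p = 0.043). Gpr37 is also an oligodendrocyte gene, and the oligodendrocyte marker sums given for Adora1 apply to it; their part was not tested.

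Genes that make, take up or break down the ligands numbered 20, and 15 were tested. Edn1, the precursor of endothelin 1, a ligand of Ednrb, was 21.4, 49.5, 29.4 and 39.1 CPM in the MB/HB mice, 0 to 7.52 CPM in VISp and at most 0.605 CPM in CBX. It rose in MB/HB against VISp (4.70, adjusted p = 1.14e-09) and was lower in CBX than in MB/HB (-4.76, adjusted p = 7.65e-06). Edn1 is also an endothelial gene, and the endothelial marker sums of the same mice, in the same order, were 805, 1209, 7.11 and 84.0 CPM. The mouse highest in Edn1 was also highest in that sum, and the part of endothelial RNA in the Edn1 level was not tested. Slc29a1, an adenosine transporter, rose in MB/HB (4.87, adjusted p = 4.69e-05), and Ece2, an endothelin-converting enzyme, fell (-2.26, adjusted p = 0.0242).

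The ectonucleotidase Entpd2, which hydrolyses ATP, and Alpl, a phosphatase that can form adenosine, were both lower in CBX. Entpd2 changed by -2.62 against VISp (adjusted p = 3.11e-09) and -2.46 against MB/HB (adjusted p = 4.2e-07). Alpl changed by -3.17 (adjusted p = 1.05e-08) and -2.99 (adjusted p = 1.04e-06). The monoamine oxidases moved in opposite directions in both tissues. Maoa rose by 2.01 in CBX (adjusted p = 4.85e-05) and by 1.07 in MB/HB (adjusted p = 0.00305) against VISp. Maob fell by 1.25 (adjusted p = 0.00118) and by 1.51 (adjusted p = 1.19e-06).

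Of 23 genes for G proteins and their effectors, 22 were tested. Gnao1, the alpha subunit of Go, was 475 to 948 CPM in VISp, 20.6 to 72.4 CPM in MB/HB, and 124 and 132 CPM in CBX, with no overlap between the tissues. It fell by 3.68 in MB/HB (adjusted p = 7.97e-15) and by 2.39 in CBX (adjusted p = 7.14e-08), and was higher in CBX than in MB/HB (1.29, adjusted p = 0.00669). Gnai1, an alpha subunit of Gi, fell in MB/HB (-2.46, adjusted p = 0.00527), but the tissues overlapped. The MB/HB mice held 5.44, 0, 0.0581 and 22.2 CPM, and the VISp mice 4.56 to 51.6 CPM (median 21.3). Itpr1, a calcium release channel of internal stores, rose by 2.63 in MB/HB (adjusted p = 7.89e-06) and by 2.11 in CBX (adjusted p = 0.00497). Adcy8, a calcium-stimulated adenylyl cyclase, rose in MB/HB (4.73, adjusted p = 0.000187). Among 4 auxiliary subunits of the GABA-B receptor, all tested, Kctd12 was 74.1 and 108 CPM in CBX against 0 to 15.2 CPM in VISp and 0 to 11.2 CPM in MB/HB. It rose in CBX by 5.60 against VISp (adjusted p = 0.000105) and by 4.69 against MB/HB (adjusted p = 0.0062).

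For each receptor gene, the 2 genes most like it over the 25 astrocyte mice were taken by Pearson's r of log2(mean CPM + 1). These correlations span tissues, so tissue differences that genes share raise them. Each is also picked as the highest over all genes past the filter, which raises it for unrelated genes too. None was tested. P2ry1 had the highest, with Ndst3 (r = 0.95) and the transcription factor Irx5 (r = 0.95); over the 19 VISp mice alone r was 0.12 for Ndst3. For Adra2a, r with Nkx6-2 was 0.79, and 0.54 within VISp. Gabbr1 was most like Hmgcll1 (0.86) and Bcl2 (0.83), Ednrb like Gpd1 (0.84) and Chst12 (0.80), and Ntsr2 like Sdc2 (0.80) and Pgm1 (0.76). Adora1 was most like Golt1b (0.81, and 0.87 within VISp) and Rabl2 (0.73). Adrb1 was most like Ctnna3 (0.78) and Aspa (0.76), which is an oligodendrocyte marker, and Gabbr2 like Mfap3l (0.77) and Zup1 (0.77). The weakest were Adra1a, with Ctdsp2 (0.72) and Pgap1 (0.69), and Adra1b, with Virma (0.63) and Ggct (0.61).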

How the data were processed

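The authors' deposited table holds CPM (reads per gene scaled to 1000000 in each cell), with cells as lines. Each line summed to 1000000, and all 9484843 positive values were whole multiples of 1 read within 0.001 reads, so depth per cell could be recovered (median 434102 reads, 57873 to 1455022). Alignment used STAR and mm10, per the submitters' processing notes; versions, the counting tool, annotation and strand are not given in the sources used here. The values of the other deposited columns carry the same unit, although their sums over cells can exceed 1000000.

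The 10 receptor genes and all gene lists were chosen with earlier results of these data known. Of 32245 gene columns 5401 were used: 405 listed genes and 4996 protein-coding genes drawn at random after the table had been opened. They held a median of 36.3% of a cell's reads, so counts of genes refer to them.

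Cells needed 500 genes detected, which all had. The 2000 most variable used genes, without the receptor genes and pathway lists, gave 30 principal components, 15 neighbours and Leiden clusters at resolution 1 (leidenalg 0.10.2, Python 3.11.15). Clusters took the name of a marker list with at least 3 markers detected; ranked by difference of mean log2 values, all 10 clusters were named. With 1 more gene in the panel, some oligodendrocytes with astrocyte markers had formed an unnamed cluster, so leaving out those with astrocyte markers was an alternative added after seeing the data. No doublet caller was run. A class called in each cell alone was the same in 2024 of 2040 cells.

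The mouse was the replicate. CPM was averaged over the cells of a class in mice with at least 10 of them, and log2(mean CPM + 1) was tested with limma 3.58.1 in R 4.3.3 (two-sided, intensity trend, Benjamini-Hochberg) in genes at 1 CPM or more in at least 2 mice, with all 25 astrocyte mice in 1 model. On this scale the change of a low gene comes out too small. Cell name stems are shared by mice, also across tissues, but the labels do not say what a stem is or whether mice were processed together, and p-values measure the spread between these mice. Comparisons between cell classes carry no test. Shares have exact (Clopper-Pearson) 95% intervals, which cover counting error only. The fit was tested on simulated data. A count model was not used, since the table was deposited as CPM; summed recovered reads served as an alternative. Gene positions and exon lengths come from GENCODE annotation of GRCm38.

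Named genes were the 10 receptor genes, in the pathway lists the 5 highest and 5 lowest log2 fold changes past the threshold per comparison and those past it in both comparisons with VISp, and the 2 most correlated genes per receptor gene. For Adra2a, 1 of these 2 is not reported here.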

Additional observations from a re-analysis of the deposited data

Results flagged for a closer look

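MB/HB was the group of 4 mice in which a single mouse could be set against the others, over 20 measures (level and share of cells for 10 genes). The mouse eHGT_381h b (32 astrocytes) stood apart in 2 of them. Its Adora1 level was 4.07 on log2(mean CPM + 1), while the nearest of the other 3 mice was at 6.68 and the highest at 7.05. Its Gabbr2 level was 3.96, with the others between 6.02 and 6.13. Chance flags about 1 in 20 measures, so about 1 of the 20 searched could be flagged by chance alone. The same mouse had the highest sums of endothelial (1209 CPM) and mural (1367 CPM) markers in its astrocytes, beside 7.11 to 805 and 21.1 to 82.2 CPM in the other MB/HB mice. It also had the highest Ntsr2 level (5235 CPM). The part of vascular RNA in these values was not tested.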

How the results depend on the processing

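Each of the 30 log2 fold changes of the receptor genes was recomputed under 19 alternatives (another pseudocount, no filter, other class and cluster rules, cells with names in AB, that prefix or the name stem as covariate, summed reads, more cells per mouse, centring, and leaving out each CBX or MB/HB mouse). Of these values 536 kept their direction and side of the threshold, 20 lost the call, 6 gained it and 8 turned sign, all 8 in differences that did not pass the test. The turned values were -0.30 for Adora1 without MB/HB mouse eHGT_381h b (up to 0.70 without another mouse), 0.72 for P2ry1 and 0.062 for Gabbr1 with the log taken per cell, and 0.78 for Gabbr2 without CBX mouse a (down to -1.46 without another). With the name stem as covariate they were -0.13 for Adra1b and -0.38 for Adora1 in MB/HB against VISp, and 0.16 for Gabbr1 and 0.60 for Gabbr2 between CBX and MB/HB; the cause was not tested. P2ry1 against VISp, Adra2a in MB/HB against both other tissues and Ednrb in CBX against VISp kept their calls under all 19. Gabbr2 gained a call between CBX and MB/HB with the class called in each cell (-1.83) and without cells carrying RNA of other classes (-2.15).

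Genes called with the log taken per cell were 1045 in CBX against VISp (519 otherwise) and 1070 in CBX against MB/HB (410 otherwise); the cause was not tested. Leaving out each CBX or MB/HB mouse gave 264 to 544 and 207 to 412 calls, of which those without a CBX mouse, with fewer samples, were 264 to 310 and 207 to 253. Among VISp vectors, no filter on low values gave 15 genes of 4527, and leaving out single mice gave 0 to 1, the 1 without 1 eHGT_374m mouse. No paired analysis was possible because the mice share no replicate numbers. The stem fit used the stem of most of a mouse's astrocytes, and the labels do not say what a stem is. That fit is therefore not shown to act as a batch block. Of the recomputed shares of cells 19 moved by more than the spread between mice, 13 of them under thinning, where depth limits detection. CBX has 2 mice, so its spread is taken from the other tissues. The AB prefix and centring alternatives kept all calls of the receptor genes but those of Ntsr2 under centring. Centring and the stem were chosen after seeing the data, as were leaving out 76 oligodendrocytes with astrocyte markers or 103 by the other ranking of leading genes, which moved no oligodendrocyte share by more than that spread.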
